A study of Medicago sativa with 12 samples.

Results

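Delta-1-pyrroline-5-carboxylate synthase (P5CS) was followed in the leaf transcriptome of alfalfa (Medicago sativa L., cultivar Zhongmu 1), a forage legume. The deposited table was searched for every gene model whose description contains "delta-1-pyrroline-5-carboxylate synthase", and 8 of its 164632 gene models were found. Proline dehydrogenase, the enzyme that opens the route of proline breakdown, was taken in the same way as the counterpart, with 6 gene models. RNA from leaves was sequenced in 12 libraries, 3 in each of 4 groups. SM plants were given 150 mM NaCl with 50 µM melatonin, S plants 150 mM NaCl, M plants 50 µM melatonin, and CK plants neither agent. All groups were seedlings of the same cultivar in the same nutrient solution. The doses come from the study's methods, the replicates are named there as biological replicates, and how many plants went into a leaf sample is not given in the sources used here. The design asks how NaCl, melatonin and their combination change transcript levels.

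P5CS is the enzyme that commits glutamate to proline. It is a bifunctional protein with a glutamate kinase part and a glutamate-5-semialdehyde dehydrogenase part, and its product closes spontaneously to pyrroline-5-carboxylate (P5C). P5C reductase then makes proline, while in mitochondria proline dehydrogenase and P5C dehydrogenase turn proline back into glutamate. A second route to P5C starts from arginine through arginase and ornithine aminotransferase. Proline is a compatible solute that many plants accumulate under salt and drought, and in Arabidopsis and Medicago truncatula the P5CS genes differ in how strongly stress induces them.

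The estimated counts summed to between 45862158 and 57192229 per library, and 69452 to 76589 gene models had a count. Pearson's r of log2(FPKM + 1) between libraries of 1 group lay between 0.734 and 0.862, and no label gives a sequencing batch or date. FPKM counts fragments relative to transcript length and library size. The leaf label was checked on marker transcripts. The 27 models of the small subunit of Rubisco summed to 2840 to 11600 FPKM with NaCl and 2490 to 5580 FPKM without, and the 74 models of chlorophyll a-b binding proteins to 24200 to 36500 FPKM with NaCl and 4100 to 21000 FPKM without. Of 43 leghemoglobin models only 1 had a count, in 1 SM library at 0.518 FPKM. Nodule cysteine-rich proteins (6 of 15 models with a count) summed to 0.124 to 1.78 FPKM with NaCl and 1 to 2.74 FPKM without, and the seed storage proteins vicilin (22 of 56) to 21.8 to 48.5 FPKM with NaCl and 26.8 to 44.0 FPKM without. Legumin (15 of 59) summed to 0.832 to 4.62 FPKM with NaCl and 11.2 to 56.3 FPKM without. The part of these shifts in the results below was not tested. In bulk leaf RNA, a change in the share of a cell type and a change of transcript per cell cannot be told apart.

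The 8 P5CS models fall into a set of 4 on the copies of chromosome 4 and a set of 4 on the copies of chromosome 7. The table names 4 copies of each chromosome (4.1 to 4.4, for example), and each copy of chromosomes 4 and 7 carries exactly 1 model. The chromosome 4 models were MS.gene73217 (chromosome 4.1, 77897417 to 77909922), MS.gene92539 (4.2, 81950741 to 81962912), MS.gene037710 (4.3, 78256340 to 78269472) and MS.gene048128 (4.4, 81019911 to 81031971). They lie on the minus strand and span 12061 to 13133 bp. The chromosome 7 models were MS.gene89313 (7.1, 38036356 to 38044234), MS.gene46096 (7.2, 41584367 to 41592208), MS.gene89810 (7.3, 41594264 to 41602039) and MS.gene055193 (7.4, 40394355 to 40402189). They span 7776 to 7879 bp and lie on the plus strand, except MS.gene46096 on the minus strand. All 8 carry the same description (isoform X2 of the Medicago truncatula protein) and the same KEGG entry, K12657. The table gives a span for each model and no exons, and the genome build is not given in the sources used here.

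A further 5 gene models share the KEGG entry K12657 but not the wording of the description, and they stayed outside the sum. Of these, 4 are described as pyrroline-5-carboxylate synthetase and lie on the copies of chromosome 3, where they summed to 1.05 to 3.63 FPKM in SM, 0.466 to 1.44 FPKM in S, 2.23 to 6.16 FPKM in M and 2.05 to 2.61 FPKM in CK leaves. The other, of unknown description on chromosome 1.1, stayed at or below 4.84 FPKM in every library. In the 4 groups these 5 models together did not pass 9.89 FPKM in any library.

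With NaCl, P5CS transcript rose to 4.84 times the M mean in SM leaves and to 6.23 times the CK mean in S leaves, and most of the gain came from the chromosome 4 copies. Summed over the 8 models, P5CS had 369.0, 230.8 and 222 FPKM in the SM libraries and 269, 413 and 231 FPKM in the S libraries. It had 47.8, 59.4 and 62.6 FPKM in the M libraries and 49.2, 35.5 and 62.1 FPKM in the CK libraries. Every library with NaCl stood above every library without it, as for 6.17% of the 15551 description sums. The group means were 274 ± 82.4 FPKM in SM, 305 ± 95.7 FPKM in S, 56.6 ± 7.79 FPKM in M and 48.9 ± 13.3 FPKM in CK (SD, n = 3 each). In the order of the means, S and SM overlapped, as did M and CK.

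The sums were tested by edgeR (quasi-likelihood F, p adjusted after Benjamini-Hochberg) among all description sums, which add the counts of the gene models that carry the same description. As an exception, the proline dehydrogenase models, which carry different descriptions, were joined into a common sum. P5C reductase was kept apart by description. The log2 fold change with NaCl, averaged over both melatonin states, was 2.49 (SE 0.22, adjusted p = 8.97e-05). Of all description sums, 10.9% were called higher and 11.6% lower in this comparison. In S vs CK the log2 fold change was 2.68 (SE 0.32, adjusted p = 9.66e-04), beside 6.53% of sums called higher. In SM vs M it was 2.29 (SE 0.31, adjusted p = 0.0041), beside 2.98%. In SM vs CK it was 2.49 (SE 0.32, adjusted p = 0.0034), beside 4%.

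Melatonin moved the P5CS sum by less than the spread between libraries, with and without NaCl. The log2 fold change was -0.19 in SM vs S (SE 0.30, adjusted p = 0.902) and 0.19 in M vs CK (SE 0.30, adjusted p = 0.955). Neither sign was stable. It turned to 0.10 in SM vs S without S replicate 2, and to -8.08e-05 in M vs CK without CK replicate 2. The interaction, which is the difference SM vs S minus the difference M vs CK, was -0.39 (SE 0.42, adjusted p = 0.862). With this test 0% of description sums were called in M vs CK, in SM vs S or in the interaction, although 1112, 1395 and 1263 of them had an unadjusted p below 0.05. DESeq2 called more in all 3, with 135 up and 63 down for M vs CK, 121 up and 157 down for SM vs S, and 59 positive and 114 negative in the interaction, and the P5CS sum was not among them.

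The 4 chromosome 4 copies were close to silent in leaves without NaCl. Together they had 282, 139 and 114 FPKM in SM and 216, 298 and 174 FPKM in S leaves, against 0.496, 0.154 and 1.57 FPKM in M and 0.807, 0.725 and 2.55 FPKM in CK leaves. Behind these values stood 16432 to 42652 counts per library with NaCl and 22 to 360 counts without. In a fit of sums by description and chromosome, they had a log2 fold change of 7.60 with NaCl (SE 0.69, adjusted p = 1.28e-04), 7.39 in S vs CK (SE 0.96, adjusted p = 0.0019) and 7.80 in SM vs M (SE 0.98, adjusted p = 0.0049). Among all 19330 such sums, 9.94%, 5.81% and 2.47% were called higher in these comparisons. Without M replicate 3 the value was 8.25 with NaCl and 9.11 in SM vs M, and without CK replicate 3 it was 8.13 in S vs CK. This level of summing was added after the data were seen. The sum averaged 1.05 FPKM without NaCl, and its call with NaCl was kept without a filter on low values. Each single copy averaged at most 0.501 FPKM without NaCl and reached the minimum of 1 FPKM set for testing only through the libraries with NaCl. The calls of single chromosome 4 copies given below are therefore not independent of that filter.

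The chromosome 7 copies were present in every library and moved far less. Together they had 86.8, 91.6 and 108 FPKM in SM and 53.1, 115 and 57.3 FPKM in S leaves, against 47.3, 59.3 and 61.0 FPKM in M and 48.4, 34.7 and 59.5 FPKM in CK leaves. Libraries with and without NaCl overlapped, because S replicates 1 and 3 stood within the range of the libraries without NaCl. The log2 fold change with NaCl was 0.70 (SE 0.22, adjusted p = 0.0438), and it was 0.65 in S vs CK (SE 0.30, adjusted p = 0.204) and 0.74 in SM vs M (SE 0.31, adjusted p = 0.183). The call with NaCl was lost when any of 9 of the 12 libraries was left out, with adjusted p up to 0.101. Without S replicate 2, the highest S library, the log2 fold change was 0.47 (adjusted p = 0.0631).

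**Figure D1:**
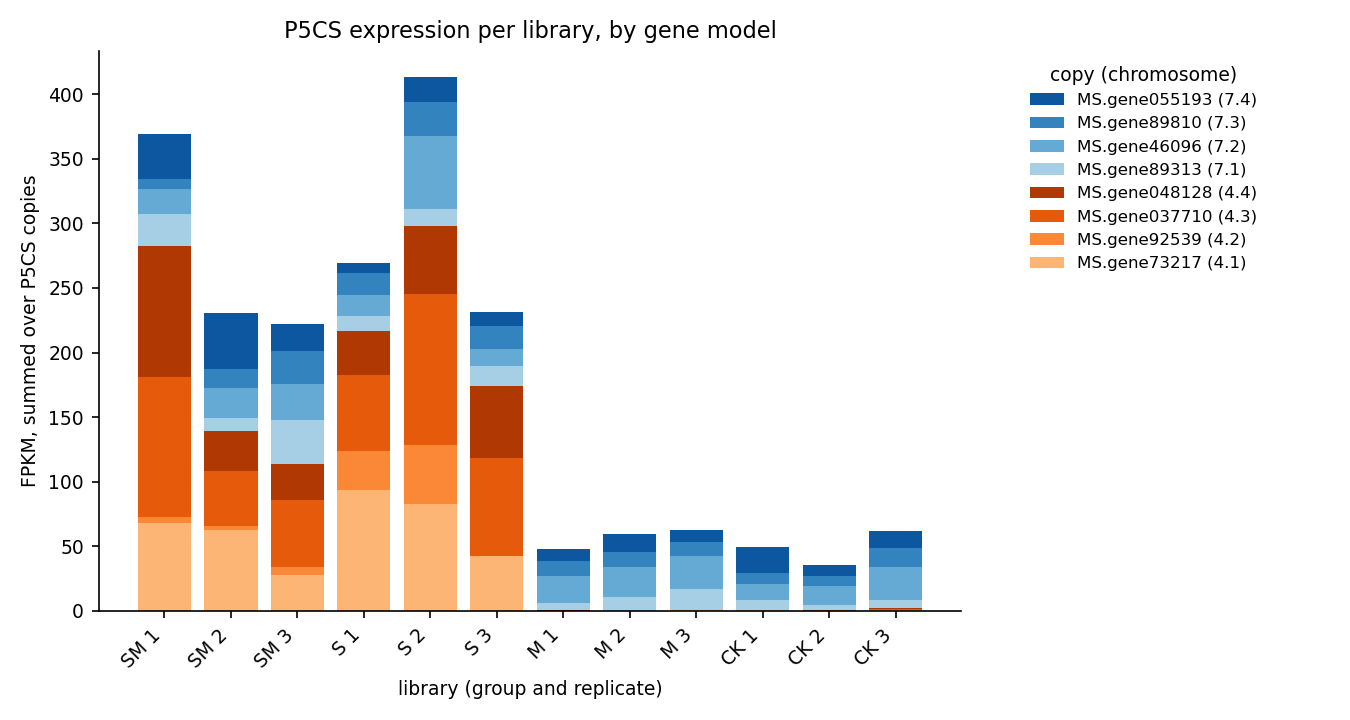
FPKM of P5CS in each of the 12 leaf libraries (group and replicate on the horizontal axis), stacked by gene model, with chromosome 4 copies in orange and chromosome 7 copies in blue. The orange part reaches 114 to 298 FPKM in the SM and S libraries and is at most 2.55 FPKM in the M and CK libraries, while the blue part is present in all 12.

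The make-up of the P5CS transcript differed accordingly. The chromosome 4 copies held 76.5%, 60.3% and 51.3% of the summed FPKM in SM, 80.3%, 72.2% and 75.2% in S, 1.04%, 0.26% and 2.51% in M, and 1.64%, 2.05% and 4.11% in CK leaves. The mean share was 69.3% with NaCl and 1.94% without, a difference of 67.4 percentage points (exact permutation test, two-sided, p = 0.00216, the smallest that the 924 assignments of 6 libraries against 6 can give). The chromosome 4 set was taken for its larger mean FPKM in these same libraries. The ranges given above for both sets already fixed this separation, so the p adds no support to it. In estimated counts, the share in single libraries with NaCl ran between 52.7% (95% exact binomial interval 52.2% to 53.3%) and 81.2% (80.8% to 81.6%). Without NaCl it ran between 0.285% (0.179% to 0.431%) and 4.37% (3.94% to 4.84%). These intervals take the estimated counts as if they were counted reads and cover counting error only, so they can be too narrow. The mean share was 62.7% ± 12.8 in SM and 75.9% ± 4.11 in S leaves (SD, n = 3 each), and SM replicate 1 lay within the S range.

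Among the chromosome 4 copies, MS.gene037710 was the highest on average with NaCl. It had 108, 43.1 and 52.5 FPKM in SM and 58.9, 117 and 75.7 FPKM in S leaves, against 0.128, 0.0531 and 0.252 FPKM in M and 0.155, 0.277 and 0.781 FPKM in CK leaves. Every library with NaCl was far above every library without, and in 4 of the 6 this copy was the highest of the 8. As a single gene model it had a log2 fold change of 8.28 with NaCl (SE 0.64, adjusted p = 9.95e-04), 7.74 in S vs CK (SE 0.89, adjusted p = 0.0097) and 8.82 in SM vs M (SE 0.93, adjusted p = 0.014).

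MS.gene73217 had 68.1, 62.4 and 27.5 FPKM in SM and 93.4, 83.2 and 42.4 FPKM in S leaves. Without NaCl it had 0.0185, 0.101 and 1.19 FPKM in M and 0.551, 0.271 and 0.88 FPKM in CK leaves. It was the highest copy in SM replicate 2 and S replicate 1. With NaCl its log2 fold change was 6.93 (SE 0.98, adjusted p = 0.0048), and 8.41 without M replicate 3, its highest library without NaCl.

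MS.gene048128 had 101, 30.6 and 27.8 FPKM in SM and 33.3, 52.3 and 56.1 FPKM in S leaves, against 0.291, 0 and 0.134 FPKM in M and 0.0512, 0.177 and 0.722 FPKM in CK leaves. SM replicate 1 stood far above the other SM libraries. On the log2 scale it differed with NaCl by 7.89 (SE 1.08, adjusted p = 0.0043), and by 8.57 without CK replicate 3.

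MS.gene92539 behaved less evenly. It had 4.79, 3.02 and 6.18 FPKM in SM and 30.7, 45 and 0 FPKM in S leaves, against 0.0581, 0 and 0 FPKM in M and 0.0494, 0 and 0.169 FPKM in CK leaves. S replicate 3 had 0 counts, which allows up to 3 counts, while the other S libraries had 4694 and 6180, so the groups with and without NaCl overlapped. The log2 fold change with NaCl was 8.11 (SE 1.84, adjusted p = 0.031), and the adjusted p passed 0.05 when any of 11 libraries was left out (0.051 to 0.0793). Its size was also unsteady, at 10.37 without M replicate 1, the only M library with a count of this copy, 8.78 without CK replicate 3, and 2.92 with limma on log2(FPKM + 1), a scale that understates the change of low genes.

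**Figure D2:**
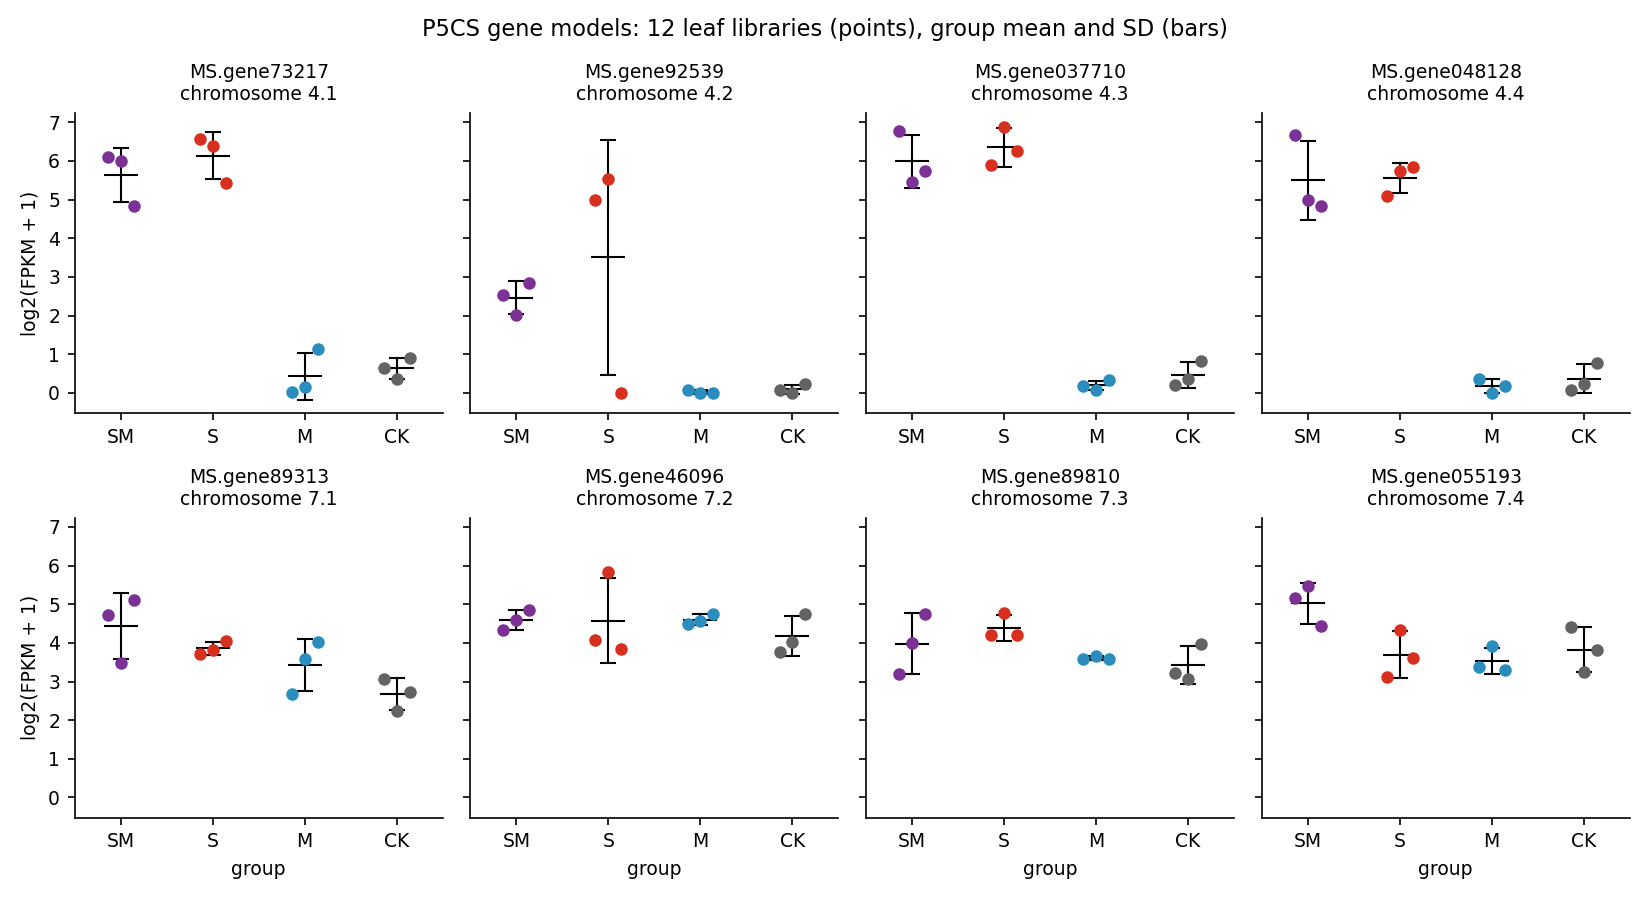
log2(FPKM + 1) of the 8 P5CS gene models by group (SM, S, M and CK from left to right), with 1 point per library and the group mean and SD as bars. Apart from MS.gene92539 in S replicate 3, the chromosome 4 models in the upper row stand higher in SM and S than in M and CK, where they are at most 1.19 FPKM. In the lower row, libraries with and without NaCl overlap in each chromosome 7 model, while the SM libraries of MS.gene055193 (20.8 to 43.2 FPKM) lie above its 9 other libraries (at most 20.1 FPKM).

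The chromosome 7 copies made up P5CS in leaves without NaCl. MS.gene46096 had 19.0, 23.3 and 27.9 FPKM in SM and 15.7, 56.4 and 13.2 FPKM in S leaves, against 21.5, 22.6 and 25.9 FPKM in M and 12.5, 15.1 and 25.9 FPKM in CK leaves. It was the highest copy in 5 of the 6 libraries without NaCl. Its log2 fold change with NaCl was 0.36 (SE 0.36, adjusted p = 0.658) and turned to -0.12 without S replicate 2.

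MS.gene055193 had 34.5, 43.2 and 20.8 FPKM in SM and 7.73, 19.3 and 11.2 FPKM in S leaves, against 9.41, 14 and 8.85 FPKM in M and 20.1, 8.42 and 13.2 FPKM in CK leaves. The SM libraries were above all others, with a log2 fold change of 1.33 in SM vs S that did not pass the adjustment (SE 0.44, unadjusted p = 0.0133, adjusted p = 0.839). With NaCl over both melatonin states it was 0.78 (SE 0.31, adjusted p = 0.178).

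MS.gene89313 had 25.2, 10.2 and 33.6 FPKM in SM and 12.2, 13.1 and 15.6 FPKM in S leaves, against 5.45, 11 and 15.2 FPKM in M and 7.41, 3.73 and 5.62 FPKM in CK leaves. The lowest level of this copy was in CK, and its log2 fold change with NaCl was 1.22 (SE 0.36, adjusted p = 0.0741). DESeq2 called it (adjusted p = 0.0166).

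MS.gene89810 had 8.09, 14.9 and 26.0 FPKM in SM and 17.4, 26.2 and 17.3 FPKM in S leaves, against 11, 11.7 and 11.1 FPKM in M and 8.31, 7.42 and 14.8 FPKM in CK leaves. The groups overlapped, and the log2 fold change with NaCl was 0.80 (SE 0.29, adjusted p = 0.142).

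Ordered by mean level with NaCl, MS.gene037710 (75.9 ± 30.6 FPKM), MS.gene73217 (62.8 ± 24.7) and MS.gene048128 (50.3 ± 27.7 FPKM, SD, n = 6 each) came first with overlapping ranges. Without NaCl, MS.gene46096 (20.6 ± 5.59 FPKM) was followed by MS.gene055193 (12.3 ± 4.48), MS.gene89810 (10.7 ± 2.63) and MS.gene89313 (8.06 ± 4.27 FPKM, SD, n = 6 each), whose ranges overlap, and the chromosome 4 copies had means of at most 0.501 FPKM. All 8 models reached the minimum of 1 FPKM on average over the 12 libraries, but the chromosome 4 copies did so only through the libraries with NaCl. Of the 8, 4 were called higher with NaCl and 0 lower, all 4 of them on chromosome 4, beside 3.34% of the 50931 gene models tested called higher and 3.06% lower. DESeq2 called 5, and all 8 log2 fold changes were positive. In 3 of the 8 the libraries with NaCl all stood above those without, as for 3.02% of gene models. In S vs CK, MS.gene037710, MS.gene73217 and MS.gene048128 were called (adjusted p of 0.0097 to 0.0447), beside 0.997% of gene models called higher. In SM vs M and in SM vs CK only MS.gene037710 was called (adjusted p = 0.014 and 0.0203), beside 0.124% and 0.218%. No P5CS model was called in M vs CK, SM vs S or the interaction, where 0.0118%, 0.0177% and 0.0275% of gene models were. Near-identical copies can share reads, and how the authors treated reads that map to several places is not given in the sources used here, so the value of a single copy is uncertain and the sums are firmer.

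Proline dehydrogenase, which oxidises proline in mitochondria, moved the other way. Its 6 models are MS.gene022097, MS.gene43181, MS.gene97309 and MS.gene95441 on chromosomes 7.1 to 7.4 and MS.gene37117 and MS.gene018202 on chromosomes 6.2 and 6.3. Their sum was 6.65, 11.8 and 6.28 FPKM in SM and 34.1, 9.22 and 28.6 FPKM in S leaves, against 189, 197 and 493 FPKM in M and 258, 108 and 129.5 FPKM in CK leaves. Every library with NaCl was below every library without, as for 4.94% of description sums. M replicate 3 stood far above the other M libraries.

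The log2 fold change of the proline dehydrogenase sum with NaCl was -3.95 (SE 0.45, adjusted p = 2.92e-04, edgeR's quasi-likelihood test). It was -2.78 in S vs CK (SE 0.60, adjusted p = 0.0147), where 5.55% of description sums were called lower. It was -5.12 in SM vs M (SE 0.67, adjusted p = 0.0037), where 3.81% were called lower, and -4.42 there without M replicate 3 (adjusted p = 0.0079). It was -4.32 in SM vs CK (SE 0.65, adjusted p = 0.0058), where 3.23% were called lower. In M vs CK the log2 fold change was 0.80 (SE 0.57, adjusted p = 0.857), and 0.11 without M replicate 3. In SM vs S it was -1.54 (SE 0.58, unadjusted p = 0.0226, adjusted p = 0.491), and the SM range overlapped that of S through S replicate 2.

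Of the 6 single models, 5 were tested and these 5 were called lower with NaCl, with log2 fold changes between -5.30 (MS.gene95441) and -3.04 (MS.gene018202). For MS.gene018202 the adjusted p was 0.0499 and passed 0.05 when any of 11 libraries was left out, while the log2 fold change was -3.83 without S replicate 2. That of MS.gene95441 was -4.58 without M replicate 3. MS.gene022097, the highest on average, had 0.493 to 11.8 FPKM with NaCl (median 3.61) and 32.4 to 156 FPKM without (median 61.0). MS.gene43181 had 0.703 to 11.1 FPKM with NaCl and 22.7 to 68.4 FPKM without, MS.gene97309 1.87 to 12 FPKM with NaCl and 27.4 to 69.9 FPKM without, and MS.gene95441 0.401 to 3.70 FPKM with NaCl and 24.8 to 192 FPKM without. In these 4, all on chromosome 7, the libraries with NaCl all stood below those without, as for 3.02% of gene models. MS.gene43181, MS.gene97309 and MS.gene95441 were called lower in SM vs M (adjusted p of 0.0194 to 0.0484), beside 0.126% of gene models. MS.gene43181 was the only one called in SM vs CK (adjusted p = 0.0308), beside 0.124%. No model was called in S vs CK, beside 0.542% (adjusted p of 0.0936 to 0.331). MS.gene37117 had at most 3.15 FPKM and was not tested. Summed by chromosome, the log2 fold change with NaCl was -3.96 on chromosome 7 (SE 0.47, adjusted p = 4.49e-04) and -3.23 on chromosome 6 (SE 0.76, adjusted p = 0.0135), beside 10.3% of such sums called lower.

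**Figure D3:**
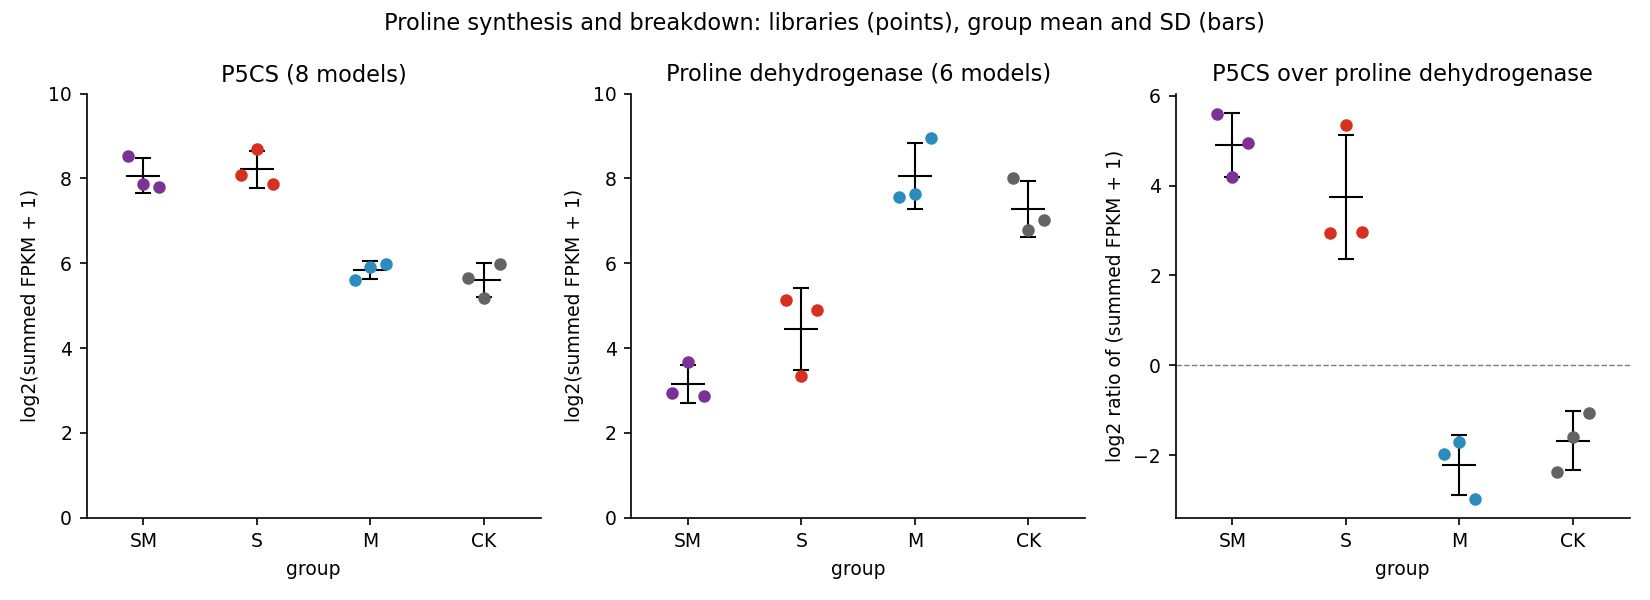
log2(summed FPKM + 1) of P5CS and of proline dehydrogenase, and the log2 ratio of the 2 sums, by group (SM, S, M and CK from left to right), with 1 point per library and the group mean and SD as bars. The ratio lies between 2.94 and 5.60 in the SM and S libraries and between -2.96 and -1.05 in the M and CK libraries.

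The balance of the transcripts of the 2 enzymes therefore turned round between the conditions. P5CS had 55.5, 19.6 and 35.4 times the FPKM of proline dehydrogenase in SM and 7.9, 44.8 and 8.1 times in S leaves, against 0.253, 0.302 and 0.127 times in M and 0.19, 0.327 and 0.479 times in CK leaves. On the scale of log2(FPKM + 1) the ratio averaged 4.33 ± 1.16 with NaCl and -1.94 ± 0.66 without (SD, n = 6 each), a difference of 6.27 (exact permutation test, two-sided, p = 0.00216, the smallest possible). This p was fixed in advance by the separations of the 2 sums given above, and it adds no support to them. The ratio and the share above were the 2 values tested this way, and both had a Benjamini-Hochberg adjusted p of 0.00216. The log2 ratio averaged 4.91 ± 0.71 in SM and 3.75 ± 1.37 in S leaves, with overlapping libraries, and -2.21 ± 0.66 in M and -1.67 ± 0.66 in CK leaves.

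The rest of proline metabolism was counted over 32 further gene models named by their descriptions, with 23 of them tested. The list was drawn up with earlier results of these data known. Models described as acetylornithine aminotransferase, an enzyme of arginine synthesis, were caught by the same wording and were left out of this count. With NaCl, 3 of the 23 were called higher and 0 lower, beside 3.34% and 3.06% of all gene models. The median log2 fold change was 0.12 over the 23 and 0.03 over all gene models. The 3 were P5C reductase models.

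P5C reductase, which takes the product of P5CS on to proline, rose with P5CS. The description shared by 4 models on chromosomes 7.1 to 7.4 summed to 67.4, 93.5 and 53.1 FPKM in SM and 73.9, 81.9 and 61.2 FPKM in S leaves, against 14.5, 13.6 and 4.16 FPKM in M and 17.5, 12.5 and 16.2 FPKM in CK leaves. Its log2 fold change with NaCl was 2.47 (SE 0.27, adjusted p = 2.56e-04), beside 10.9% of description sums called higher. It was 2.21 in S vs CK (adjusted p = 0.0051), beside 6.53%, and 2.73 in SM vs M (adjusted p = 0.0049), beside 2.98%. The highest of the 4, MS.gene38774, had a log2 fold change of 2.35 with NaCl (SE 0.37, adjusted p = 0.0069).

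The other P5C reductase model with its own description, MS.gene017772 on chromosome 7.4, had 22.7, 24.1 and 21.0 FPKM in SM and 27.7, 36.1 and 21.4 FPKM in S leaves, against 4.28, 4.78 and 1.77 FPKM in M and 8.69, 9.15 and 6.49 FPKM in CK leaves. The log2 fold change of its description with NaCl was 2.21 (SE 0.26, adjusted p = 3.16e-04). In both P5C reductase sums every library with NaCl was above every library without, as for 6.17% of description sums. M replicate 3 was the lowest of the 12 in both.

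The route from arginine did not follow P5CS upward. Arginase 1 (4 models of the tested description, on chromosomes 4.1 to 4.4), which releases ornithine from arginine, summed to 102, 113 and 178 FPKM in SM and 212, 125 and 104 FPKM in S leaves, against 167, 206 and 328 FPKM in M and 253, 291 and 336 FPKM in CK leaves. S replicate 1 was above M replicates 1 and 2, so the ranges overlapped, and the log2 fold change with NaCl was -0.96 (SE 0.25, adjusted p = 0.0191). Its highest model, MS.gene45808, had a log2 fold change of -0.93 (SE 0.57, adjusted p = 0.406).

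Putative ornithine aminotransferase, which makes the P5C precursor from ornithine, summed to 202, 183 and 265 FPKM in SM and 149.7, 185 and 79.5 FPKM in S leaves, against 278, 254 and 251 FPKM in M and 321, 196 and 332 FPKM in CK leaves. Its log2 fold change was -0.68 with NaCl (SE 0.21, adjusted p = 0.0405) and -1.06 in S vs CK (SE 0.30, adjusted p = 0.0441). It was not called in SM vs M, where the SM mean was 0.83 times the M mean, against 0.487 times for S over CK. With NaCl the call was lost when any of 9 libraries was left out (adjusted p up to 0.0937). Its highest model, MS.gene023325, had a log2 fold change of -0.60 (SE 0.31, adjusted p = 0.296). Acetylornithine aminotransferase had a log2 fold change of 0.18 (SE 0.20, adjusted p = 0.561).

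P5C dehydrogenase 12A1, the second step of proline breakdown, summed to 82.5, 123 and 75.4 FPKM in SM and 134, 135 and 87.7 FPKM in S leaves, against 47.3, 31.5 and 77.0 FPKM in M and 86.0, 81.6 and 69.6 FPKM in CK leaves. Its log2 fold change with NaCl was 0.67 (SE 0.25, adjusted p = 0.0753), so that the fall of proline dehydrogenase had no called counterpart in this enzyme. Its highest model, MS.gene51065, had a log2 fold change of 0.52 (SE 0.36, adjusted p = 0.471). Proline transporters, which carry proline across membranes, had log2 fold changes of 0.74 (transporter 1, SE 0.44, adjusted p = 0.257) and -0.26 (transporter 2, SE 0.17, adjusted p = 0.298), and the highest model of the family, MS.gene033318 of transporter 2, one of -0.56 (SE 0.19, adjusted p = 0.115).

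**Figure D4:**
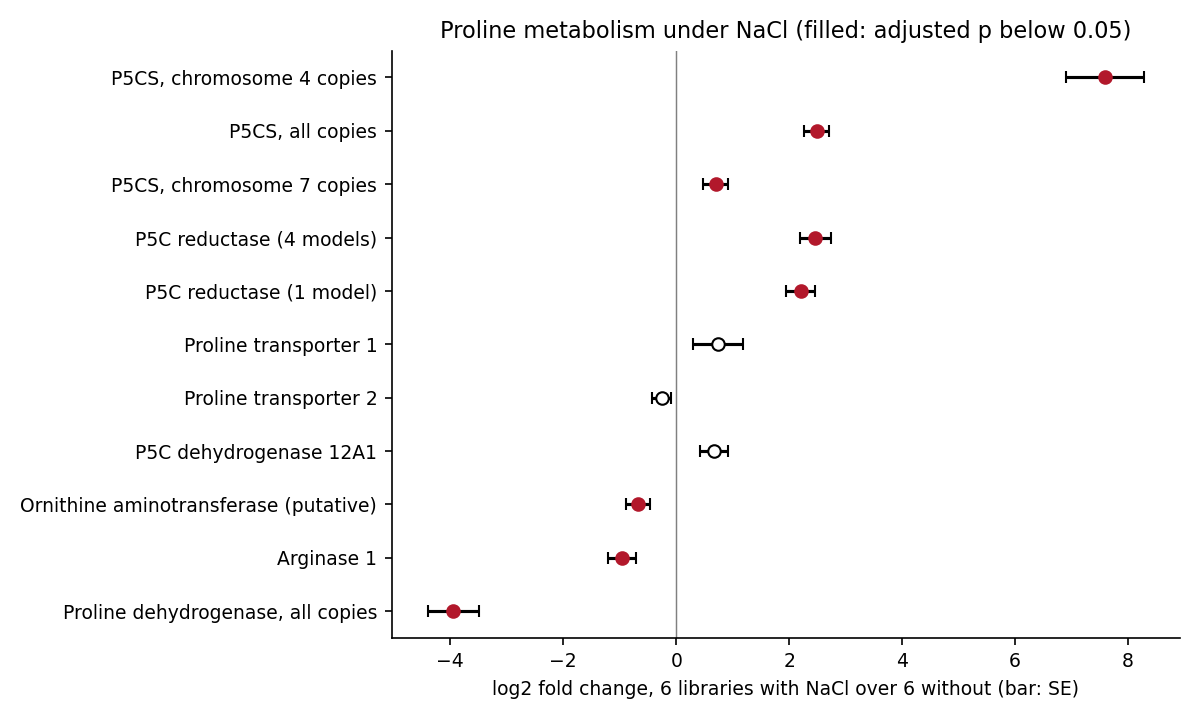
log2 fold change between the 6 libraries with NaCl and the 6 without for sums over gene models of proline metabolism (P5C stands for pyrroline-5-carboxylate), with the SE as bars and filled points at an adjusted p below 0.05. The chromosome 4 copies of P5CS stand at 7.60, both P5C reductase descriptions at 2.21 and 2.47, and proline dehydrogenase at -3.95.

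The profiles most like that of the P5CS sum were sought among the description sums, by the root mean square difference over the 12 libraries between log2(summed FPKM + 1) values centred on their own means. The median difference over all sums was 1.32. The 5 closest were late embryogenesis abundant protein 6 (0.345), beta-glucosidase 11 isoform X2 (0.384), carboxyl-terminal-processing peptidase 3 of the chloroplast (0.386), NADP-dependent glyceraldehyde-3-phosphate dehydrogenase (0.435) and B-box zinc finger protein 24 (0.439). Late embryogenesis abundant protein 6, of a family of hydrophilic proteins known from drying seeds, had 4.89 ± 4.13 FPKM in SM, 4.68 ± 1.45 in S, 0.112 ± 0.194 in M and 0 FPKM in CK leaves. Beta-glucosidase 11 isoform X2 had 9.15 ± 2.36 FPKM in SM, 8.79 ± 1.97 in S, 1.59 ± 0.529 in M and 1.19 ± 0.884 in CK leaves. At such low levels the added 1 understates the change, so the likeness of these sums to P5CS does not mean an equal fold change. NADP-dependent glyceraldehyde-3-phosphate dehydrogenase, a source of NADPH, had 268 ± 38.6 FPKM in SM, 510 ± 102 in S, 64.2 ± 6.50 in M and 79.2 ± 17.0 in CK leaves. B-box zinc finger protein 24 had 243 ± 34.0 FPKM in SM, 381 ± 190.0 in S, 89.9 ± 16.8 in M and 84.1 ± 20.7 in CK leaves (SD, n = 3 each). They were chosen for this likeness, so their levels were not tested.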

How the data were processed

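The authors used Cutadapt for trimming, HISAT2 (2.0.4) for mapping, StringTie and gffcompare for assembly, and StringTie with Ballgown for expression levels. The deposited table gives an FPKM value and an estimated count per gene model and library, and the placeholder FPKM it holds for a model without a count was read as 0. The genome build is not given in the sources used here. Estimated counts (whole numbers) were fitted with edgeR 4.0.16 (TMM, glmQLFit and glmQLFTest, R 4.3.3) in 1 model of 4 group means over 12 libraries, for features with a mean FPKM of at least 1, on gene models, on description sums and on sums by description and chromosome. P-values were adjusted after Benjamini-Hochberg over all features of a table. The SE is the absolute log2 fold change divided by the square root of F. The ratio used log2(FPKM + 1) and the share used percent, each with an exact permutation test over all assignments. The binomial intervals came from scipy 1.17.1. The edgeR fit of description sums was tried on simulated data for the NaCl comparison over both melatonin states. The other steps were not tried on simulated data. The alternatives were RLE scaling, DESeq2 1.42.0, limma 3.58.1 on log2(FPKM + 1) or log2(FPKM + 0.1), no filter, a minimum of 5 FPKM, a replicate block, the compared groups alone, the study's fold thresholds, and leaving out each library. P5CS, proline dehydrogenase and the other enzymes were named by description, and of the other enzymes each called sum and each highest model was named, with the 5 closest profiles. Members and lists were chosen with earlier results of these data known. No sequence was printed, since no genome of these gene models was used here.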

Additional observations from a re-analysis of the deposited data

Results flagged for a closer look

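Both enzyme sums, the 8 P5CS models and the 5 tested proline dehydrogenase models were screened for effects of opposite direction. Each library was judged against the mean of its control group, for melatonin with and without NaCl and for NaCl with and without melatonin. How many of all features meet this rule was not counted. In 1 summed enzyme and 3 gene models the melatonin differences went in opposite directions with and without NaCl. None of these interactions passed the adjustment in edgeR's quasi-likelihood test, so the differences are not established, and near-identical copies make single models uncertain. The proline dehydrogenase sum was lower in all 3 SM libraries than the S mean and higher in all 3 M libraries than the CK mean, with an interaction of -2.35 on the log2 scale (SE 0.81, unadjusted p = 0.015, adjusted p = 0.531), and -1.64 without M replicate 3. The same pattern stood in MS.gene43181, at -3.20 (SE 0.79, unadjusted p = 0.0022, adjusted p = 0.628), which DESeq2 called (-3.23, adjusted p = 0.00896) and which ran from -3.92 to -2.75 with 1 library left out. MS.gene95441 stood at -3.41 (SE 1.29, unadjusted p = 0.0244, adjusted p = 0.747), but at -1.90 without M replicate 3 (adjusted p = 0.854). In that model M replicates 1 and 2, at 35 and 32.0 FPKM, were close to the CK mean of 31.9 FPKM, and M replicate 3 had 192 FPKM. The P5CS model MS.gene46096 had an interaction of -0.71 (SE 0.72, adjusted p = 1), which turned to 0.26 without S replicate 2, the library that raised the S mean. Another P5CS model, 1 of the 8, had an unadjusted interaction p below 0.05 in edgeR's test but did not meet the rule of this screen.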

How the results depend on the processing

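Calls on the P5CS and proline dehydrogenase sums with NaCl over both melatonin states and in S vs CK, SM vs M and SM vs CK kept their direction and their side of the threshold under every alternative run. The P5CS sum with NaCl ranged from 2.34 to 2.57 and the proline dehydrogenase sum from -4.13 to -3.60. The only signs that turned were of uncalled P5CS values, -8.08e-05 in M vs CK without CK replicate 2 (highest 0.37 with another library left out), 0.10 in SM vs S without S replicate 2 (lowest -0.49), and, for MS.gene46096 without S replicate 2, -0.12 with NaCl (highest 0.52) and 0.26 in the interaction (lowest -1.05). No pairing by replicate number was seen, with correlations of deviations from -0.082 to 0.045 over 18 same-numbered pairs. Such correlations cannot show that no repeat was shared, and the study states that its experiment was done 3 times. With the replicate number as a block, the P5CS sum with NaCl stood at 2.49 (adjusted p = 7.11e-04) and that of proline dehydrogenase at -3.90 (adjusted p = 0.0013), and 3 P5CS models were called in place of 4. The block also ended the calls of the chromosome 7 copies (0.69, adjusted p = 0.07), MS.gene92539 (adjusted p = 0.0762), MS.gene018202 (adjusted p = 0.117), MS.gene022097 (adjusted p = 0.0517) and putative ornithine aminotransferase (adjusted p = 0.0772), and the cause was not tested. On the scale of limma's log2(FPKM + 1), MS.gene92539 stood at 2.92 and the chromosome 4 copies together at 6.66, with both calls kept. Without a filter, the chromosome 7 copies (adjusted p = 0.0613), MS.gene018202 (0.0787) and putative ornithine aminotransferase (0.0609) lost their calls. Between 3 and 4 P5CS models were called when 1 library was left out, and 5 with the study's thresholds. Adding all models of K12657 gave 2.40 with NaCl (adjusted p = 9.01e-05). The ratio difference ran from 5.42 (S against CK alone) to 7.11 (SM against M alone), and that of the share from 61.4 to 73.3 percentage points.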
